A study of Mus musculus with 16 samples.

Results

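The cytosolic ribosomal protein genes encode the protein parts of the ribosomes that translate nuclear messages. They were taken as the protein-coding mouse genes whose symbol starts with Rpl or Rps followed by a digit, together with Rplp0, Rplp1, Rplp2 and Rpsa. Of 102 such symbols, 10 Rps6k kinase symbols, 6 pseudogene names with -ps, Rps19bp1 and Rpl10l were left out. All 84 genes that remained reached a value of 10 in 2 or more P16 libraries of the control table, so 84 of the 55414 genes in the tables are described. They comprise 46 genes of the large subunit, 31 of the small subunit and 7 copies (Rpl3l, Rpl7l1, Rpl22l1, Rpl36al, Rpl39l, Rps27l and Rps27rt).

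Testis RNA was sequenced at 14 (P14) or 16 (P16) days after birth, and the title of the series names a late role of the RNA helicase YTHDC2 in spermatocytes as its subject. The groups were control testes (2 libraries at each stage, named WT in the table columns), Ythdc2 conditional knockout testes, termed cKO (3 at each stage), and Cre control testes (2 at P14 and 4 at P16), and animals of all groups had been given tamoxifen (10 mg per ml) on both P12 and P13. The labels name neither the driver of the Cre recombinase, the cells in which it acts, the alleles of either control type, the age or strain beyond the stage, nor whether the RNA of a library came from 1 animal. Ribosomal RNA was depleted with 1 kit (Ribo-Zero, "first kit") for the controls and cKO libraries 1 and 2, and with another (NEBNext, "second kit") for the Cre controls and cKO library 3. The column names place all first-kit libraries in 1 sequencing run, and those of the second kit in another, except Cre control P16 libraries 2 to 4, which had a run of their own. Nothing in the labels says that libraries of a group came from separate animals, so p-values measure the spread between libraries, which may be technical.

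A ribosome joins a small subunit, which reads the message, to a large subunit, which forms the peptide bonds. Its proteins are needed in near equal numbers, and their messages are among the most abundant of a growing cell. Most start with a cytosine followed by a stretch of pyrimidines, the terminal oligopyrimidine or TOP motif, through which LARP1 and the mTOR kinase set how much of them is translated and kept. In the male germ line the X chromosome is silenced at the pachytene stage of meiosis, and autosomal copies such as Rpl39l are known to be expressed in spermatocytes as counterparts of X-linked genes. YTHDC2 binds methylated RNA and is known for its part in the passage of germ cells from mitosis to meiosis.

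The sequence around the start site is shown for 11 of these genes, chosen as genes with a long pyrimidine stretch, genes that fell most in cKO at P16, the 4 X-linked genes and the copy Rpl39l. Each line gives 15 bases before and 15 after the RefSeq start (assembly GRCm38.p6), 5′ to 3′ on the gene's strand, with its longest run of C and T in capitals.
Rpl35: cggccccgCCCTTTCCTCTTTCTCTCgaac (chr2:39005117-39005146, minus strand)
Rplp2: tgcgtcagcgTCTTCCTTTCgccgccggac (chr7:141447636-141447665, plus strand)
Rps6: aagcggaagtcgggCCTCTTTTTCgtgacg (chr4:86857353-86857382, minus strand)
Rps28: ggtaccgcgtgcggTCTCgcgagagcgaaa (chr17:33824548-33824577, minus strand)
Rps7: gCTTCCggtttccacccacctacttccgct (chr12:28635939-28635968, minus strand)
Rps16: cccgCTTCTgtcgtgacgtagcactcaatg (chr7:28350674-28350703, plus strand)
Rps4x: ctgaggctgggcggagcaacccaggCTCCa (chrX:102189377-102189406, minus strand)
Rpl10: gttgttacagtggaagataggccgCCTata (chrX:74270801-74270830, plus strand)
Rpl36a: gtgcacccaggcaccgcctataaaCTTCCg (chrX:134585639-134585668, plus strand)
Rpl39: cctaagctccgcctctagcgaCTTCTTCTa (chrX:37085208-37085237, minus strand)
Rpl39l: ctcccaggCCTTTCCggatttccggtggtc (chr16:10170213-10170242, plus strand)

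A start region was listed for 64 of the 84 genes, with 76 start sites among them. A run of at least 8 pyrimidines lay within the 30 bases around the start in 28 of these 76 sites (36.8%), against 3943 of all 32851 listed sites. The longest run of the windows printed above is that of Rpl35, with 18 bases, while Rps28, Rps7 and Rps16 had 4, 5 and 5. In the 300 bases from 250 before to 50 after the start, counting both strands, TTCCGG, the core that ETS-family factors bind, was found in 48.7% of the 76 sites and in 14.9% of all sites. CACGTG, the E-box to which MYC binds, was found in 10.5% and 7.15%, respectively. These are letter matches only.

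All 84 genes passed the filter at P16, but Rpl24 did so only through the cKO libraries, where it held 12.6 and 14.5 against 9.35 and 3.78 in controls. Apart from it, the lowest levels were those of Rpl3l, a copy known from heart and skeletal muscle, with 29.1 and 22.7 in controls, and of Rpl36al, with 24.9 and 25.5. Rps12-ps3 and Rpl9-ps6 were named as pseudogenes and left out, with control values of 4.16 and 11.3, and 56.1 and 50.1. Per kb of transcript, Rplp0 stood highest among the P16 controls at 29419 ± 285 normalised counts per kb (SD, n = 2), followed by Rplp1 (22118 ± 119) and Rps14 (20406 ± 819). The median over the 84 genes was 7503 and the lowest, Rpl24, 9.70 ± 5.82. Rpl24, Rpl36al, Rps10 and Rpl13a share exons with an annotated gene on the same strand, and 60 of the 84 genes have named pseudogenes. How reads were split between these copies is uncertain. Rps28 shares exons with Kank3 on the other strand, and the strand setting of the counting is not given in the sources used here.

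The target of the knockout, Ythdc2, stood in the P16 control table at 2666 and 2609 in controls and at 501.7 and 540.6 in cKO. In limma it fell by 2.34 on the log2 scale (SE 0.060, adjusted p 2.39e-10). The libraries of the first kit held 22220565 to 27531529 reads on genes and those of the second 14494867 to 23200252. Of these, 415037 to 553666 and 286395 to 453110 fell on the ribosomal protein genes. The summed values of the germ cell and somatic marker lists of the testis were above 0 in every library. Each of the 10 Sertoli and 12 early meiotic genes was above 0 in at least 1 library of every comparison. In that of cKO with Cre controls at P16, 1 of 8 Leydig genes was at 0 in all libraries.

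At P16, messages of ribosomal proteins were lower in cKO testes than in controls across both subunits. The fall was shallow, with a median log2 difference of -0.24 over the 84 genes (a fold of 0.845) against -0.000495 over all 17986 genes tested. Of the 84 genes, 70 fell, 1 rose and 13 were not called, where 19.9% of all genes tested fell and 18.6% rose (38.6% in all). Called means an adjusted p below 0.05 in limma on log2(value + 1), a scale that understates the change of low genes. In all, 81 of the 84 differences were below 0, as were 50.1% of those of all genes. In 75 of the 84 genes both cKO libraries lay below both controls, where 35.4% of all genes did so. In 3 both lay above (34.2% of all genes). Among these 3 was Rpl24, which passed the filter only through the cKO libraries. In these bulk samples fewer cells of a type and less RNA per cell cannot be told apart.

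**Figure D1:**
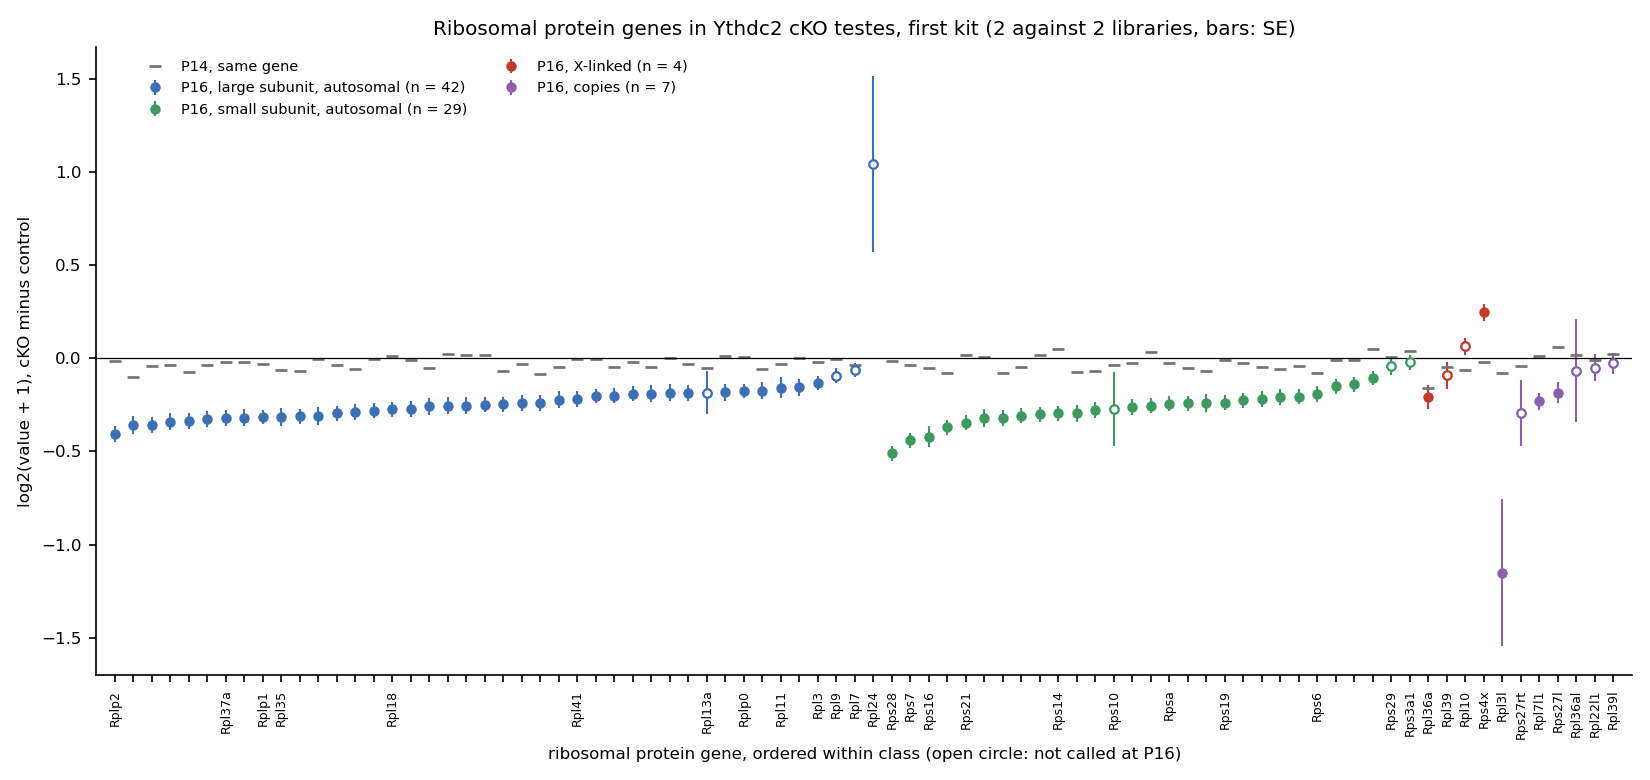
Log2 difference between cKO and control at P16 for 82 of the 84 genes (first kit, 2 libraries per group, bars are the SE, open circles were not called), with the P14 difference of the same gene as a grey dash and names for the genes described here. Nearly all autosomal genes lie below 0 at P16 and near 0 at P14, the X-linked Rps4x lies above 0 at P16, and the wide bars belong to the low genes Rpl24 and Rpl3l.

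The stalk of the large subunit, which draws elongation factors to the ribosome, is built of Rplp0, Rplp1 and Rplp2. Rplp2 measured 5598 and 5689 in controls and 4216 and 4295 in cKO. Its log2 change was -0.41 (SE 0.042, adjusted p 1.29e-05), and the groups did not overlap. Rplp1 fell from 11037 ± 59.6 (SD, n = 2) to 8872 ± 199 (SD, n = 2), or by 0.32 on the log2 scale. Rplp0, the most abundant of the 3, stood at 25296 and 24952 against 21989 and 22471. It fell less, by 0.18 (SE 0.038, adjusted p 0.00296).

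Among the autosomal genes of the small subunit, 27 of 30 fell and none rose, with a median of -0.26. The largest fall was that of Rps28, a small protein of this subunit. Its values were 7178 and 7164 in controls and 5065 and 4999 in cKO, that is, it fell by 29.8%, with a log2 change of -0.51 (SE 0.040, adjusted p 1.72e-06). Rps7, whose human counterpart is among the genes of Diamond-Blackfan anaemia, held 6728 and 6724 in controls and 4945 and 4966 in cKO. The libraries of each group lay close together, and the log2 change was -0.44 (SE 0.040). Rps16, whose tail reaches the peptidyl site, fell from 3142 and 3481 to 2558 and 2389, a log2 change of -0.42 (SE 0.057). Rps6, the protein that the S6 kinases phosphorylate, fell by 0.19 (SE 0.044), and Rpsa, also known as the laminin receptor, by 0.24 (SE 0.039). Rps3a1 measured 7400 and 7586 in controls and 7414 and 7344 in cKO. Its groups overlapped, and neither it nor Rps29 nor the low Rps10 was called.

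Among the autosomal genes of the large subunit, 39 of 43 fell and none rose, with a median of -0.25. Rplp2, given above, was among those that fell most. Rpl3, which lines the peptidyl transferase centre, was at the shallow end, with 9659 and 9871 in controls and 8985 and 8829 in cKO. It was still called, at -0.13 (SE 0.039, adjusted p 0.0177). The 4 genes not called were Rpl7, Rpl9, the overlapped Rpl13a, and Rpl24. Over the 66 autosomal genes that fell, the log2 change ran from -0.51 to -0.11.

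The 4 X-linked genes did not move together. Rps4x, a small subunit protein, measured 4098 and 4238 in controls and 5113 and 4782 in cKO. Both cKO libraries lay above both controls, and the gene rose by 0.25 on the log2 scale (SE 0.047, adjusted p 0.00121). Rpl10, which joins the large subunit late in its assembly, stood at 3367 and 3518 against 3564 and 3638, also without overlap. It was not called, with a log2 difference of 0.07 (SE 0.045, adjusted p 0.280). Rpl39, a protein of the exit tunnel, overlapped between groups (1372 and 1520, 1453 and 1267). Rpl36a fell from 1185 and 1327 to 1067 and 1103, by 0.21 (SE 0.065, adjusted p 0.0228), a call that ended without control library 2 (adjusted p 0.280).

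Of the 7 copies, 3 fell and none rose. Rpl3l fell from the 29.1 and 22.7 given above to 16.5 and 7.25, a log2 change of -1.15 (SE 0.40, adjusted p 0.0352) that rests on as few as 7 reads in a library. Rpl7l1 fell from 2914 and 2948 to 2529 and 2472, by 0.23 (SE 0.046), and Rps27l, a target of p53, from 2570 and 2562 to 2126 and 2400, by 0.18 (SE 0.058). Rpl39l, the copy of Rpl39, held 2142 and 2225 against 2050 and 2241, with a log2 difference of -0.03 (SE 0.055, adjusted p 0.738). Rpl22l1, Rpl36al and Rps27rt were not called.

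The falls were also counted by features of the genes that the choice of genes did not use. Of the 30 genes that hold a small nucleolar RNA gene, 26 fell with a median of -0.24, and of the 54 others 44 fell with a median of -0.25. Of the 60 genes with named pseudogenes 52 fell, and of the 24 without them 18. Among the 64 genes with a listed start, 23 of 27 with a pyrimidine run of at least 8 fell (median -0.25) and 29 of 37 with a shorter run did (median -0.24), with 27 and 34 below 0. None of these differences was tested. Over the 78 genes with a control mean of at least 500, the change had a Pearson correlation of -0.27 with the log2 level per kb (Spearman -0.26) and of 0.06 with transcript length (Spearman 0.15), as a description of genes measured in the same 4 libraries.

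The count of calls at P16 depends on how the spread is modelled. Without the trend of the spread on the level, 6 genes fell and 0 rose, and the share of all genes in that fit is not given here. With both control types and the kit as a covariate, 26 of 84 fell and 0 rose (7.49% of all genes fell in that fit), and all 26 were among the 70. There Rps28 changed by -0.40 (SE 0.063, adjusted p 0.00475) and Rps4x by 0.24 (SE 0.083, adjusted p 0.0769).

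Markers of several cell types moved at the same stage, where 19.9% of all genes tested fell and 18.6% rose. The 15 spermatogonial markers summed to 24114 and 24259 in P16 controls and to 18818 and 19157 in cKO, and 10 of the 14 tested fell while 2 rose. The 12 early meiotic markers, of which 11 fell, summed to between 70358 and 73964 in controls and between 53104 and 57459 in cKO. The pachytene and later list of 10 summed to between 49167 and 50331 in controls and between 54434 and 60438 in cKO, with 6 genes higher and 1 lower. Sertoli markers were higher in 7 of 10, and summed to between 112073 and 117339 in controls and between 134100 and 148034 in cKO. Macrophage markers were higher in 7 of 8 (3240 and 3277 against 4470 and 4659), and Leydig markers in 4 of 7. The peritubular list summed to 6978 and 7541 in controls and to 7590 and 9012 in cKO. The endothelial list summed to 2673 and 2825 against 3109 and 3275, and the sums of the red blood cell list overlapped. No defining marker of these lists was at 0 in all libraries of this comparison. Their part in the fall of the ribosomal protein genes was not tested.

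At P14, 1 day after the last tamoxifen dose, none of the 83 genes tested was called in either direction. Over all 17270 genes, 1 was called, Ythdc2 itself, which is 0.00579%. The median over the 83 genes was -0.03, with 63 genes below 0 (46.4% of all genes were) and 20 above. At an unadjusted p under 0.05 there was 1 ribosomal protein gene, Rpl36a, and 410 genes in all, and edgeR and DESeq2 also called no ribosomal protein gene. Rps28 measured 7051 and 6645 in controls and 6655 and 6919 in cKO. Rps7 measured 6211 and 6130 against 5919 and 6123, and Rps4x 5185 and 4754 against 5039 and 4753. The groups overlapped for Rps28 and Rps4x. For Rps7 both cKO libraries lay below both controls, but cKO library 2 lay nearer to the controls than to cKO library 1. The macrophage list, which stood higher in cKO at P16, summed at P14 to between 4561 and 4884 in controls and between 3809 and 4865 in cKO.

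The difference between the stages was tested directly as an interaction on log2 CPM of the recovered reads in the 8 first-kit libraries. Among the 84 genes, 25 had a more negative cKO effect at P16 than at P14 and 0 a more positive one, where 4.49% and 2.90% of all 18581 genes did (7.39% in all). Differences below 0 numbered 81 of 84, against 50.2% over all genes. All 25 were among the 70 that fell at P16, with which this test shares its P16 libraries. Rps28 stood at 292 and 276 CPM in P14 controls, 274 and 295 in P14 cKO, 276 and 275 in P16 controls and 194 and 192 in P16 cKO. Only the P16 cKO libraries stood apart, and the interaction was -0.48 (SE 0.063, limma adjusted p 0.00322). It was -0.39 for Rps7 and -0.38 for Rplp2, both called. For Rps4x the interaction was 0.28 (SE 0.080, adjusted p 0.0632) and was not called, but it was without cKO P14 library 1 (adjusted p 0.0292). Macrophage markers had a more positive cKO effect at P16 than at P14 in 4 of 8 genes, and Sertoli markers in 4 of 10. Their part was not tested.

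**Figure D2:**
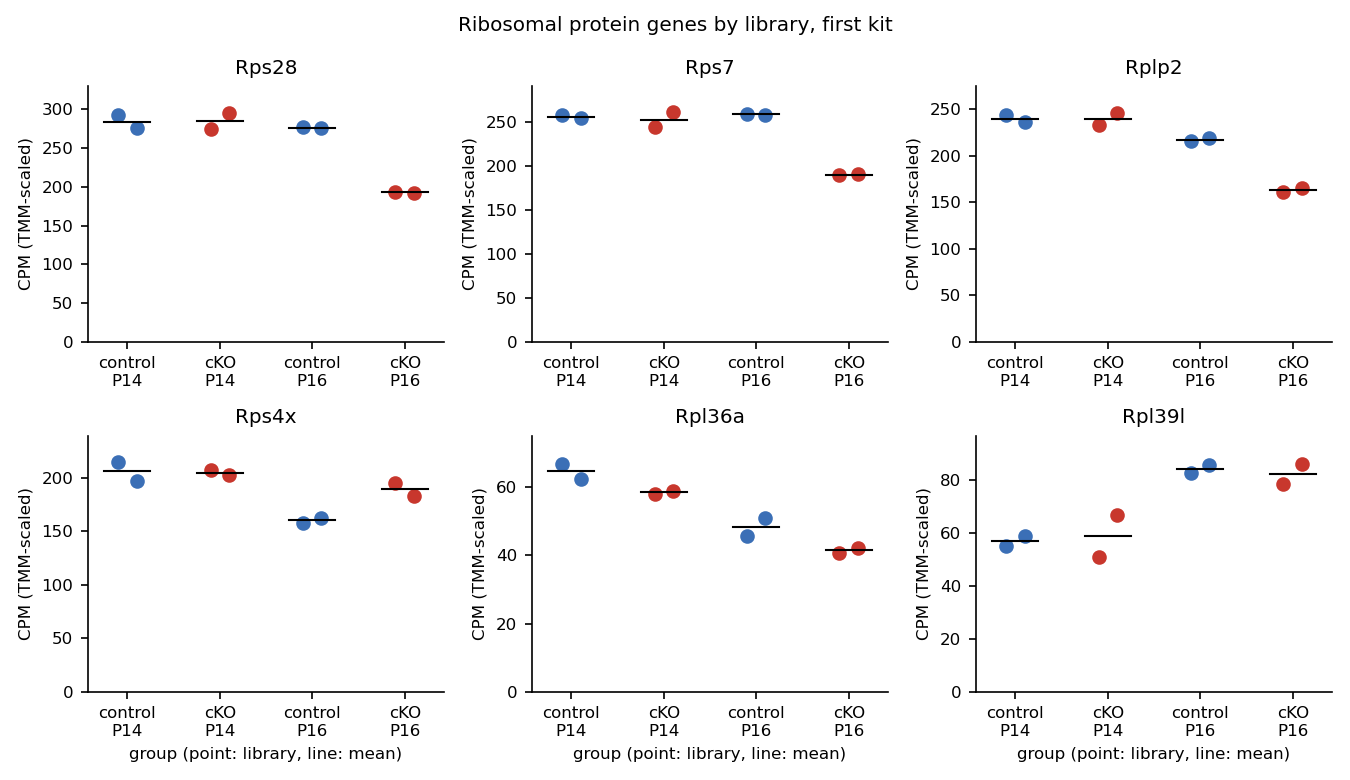
CPM of 6 genes in each library of the first kit, by group, with the group mean as a line. The plotted values were not TMM-scaled, although the axis is labelled so. Rps28 and Rps7 are low in the P16 cKO libraries alone, Rplp2 is lowest there and also falls with age in controls, Rps4x falls with age in controls, Rpl36a falls with age in both groups, and Rpl39l is higher at P16 in both.

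The count of 25 rests on few libraries. The counts that follow have no share of all genes beside them and show only how the calls vary. Leaving out cKO P14 library 1 gave 45 lower and 1 higher. Leaving out control P14 library 1 or 2 gave 7 or 4, control P16 library 1 or 2 gave 4 or 3, and cKO P16 library 1 or 2 gave 5 or 10. Without the trend of the spread no ribosomal protein gene was called.

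The change from P14 to P16 was followed in both groups of the first kit. In controls the median change was -0.07, and 11 of the 84 genes fell and 1 rose, where 6.67% of all genes fell and 13.3% rose (20% in all). In all, 72 of the 84 changes were below 0, against 52.4% over all genes. All 4 X-linked genes were among the 11. Rps4x fell from 215 and 197 CPM to 158 and 163, a log2 change of -0.36 (SE 0.057, adjusted p 0.00202). Rpl36a fell by 0.42, Rpl10 by 0.33 and Rpl39 by 0.27. The autosomal genes that fell did so by less, for example Rps19 by 0.17, and Rps28 and Rps7 were not called (-0.04 and 0.02). The gene that rose was Rpl39l, from 54.9 and 58.8 CPM to 82.5 and 85.5, or 0.57 on the log2 scale (SE 0.099, adjusted p 0.00347). Markers of pachytene and later stages rose over the same interval in 10 of 10 genes, and macrophage markers fell in 6 of 8 and peritubular ones in 4 of 5. Their part was not tested. The count of 11 was 3 without control P14 library 1, 4 without control P14 library 2, 3 without either control P16 library, 7 without either cKO P16 library, and 3 without the trend of the spread.

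In cKO the median change from P14 to P16 was -0.26, and 74 of the 84 genes fell and 1 rose, where 13.8% and 16% of all genes did (29.8% in all). There were 81 changes below 0, against 48.5% over all genes. Rplp2 fell from 233 and 246 CPM to 161 and 165, by 0.52 (SE 0.042, adjusted p 5.24e-05). Rps21 stood at 222 and 241 CPM at P14 and at 164 and 163 at P16, a fall of 0.47. Of the X-linked genes, Rpl36a (-0.46), Rpl39 (-0.30) and Rpl10 (-0.19) fell. Rps4x measured 207 and 202 CPM at P14 and 196 and 183 at P16, and its change of -0.08 (SE 0.057, adjusted p 0.343) was not called. Rpl39l rose as in controls, by 0.53 (SE 0.099), from 51.0 and 66.8 CPM to 78.4 and 85.9. Markers of pachytene and later stages rose over this interval in 10 of 10 genes, spermatogonial ones fell in 10 of 15 and rose in 2, early meiotic ones fell in 5 of 12, and Sertoli ones rose in 2 and fell in 2 of 10. Their part in the fall was not tested. The comparisons in controls, in cKO and between them share libraries and are set side by side only.

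The Cre controls gave the same interval in libraries of the second kit, which share none with the first. Over 4 P16 and 2 P14 libraries, 8 of 83 genes fell and 1 rose, where 2.82% and 8.97% of all 18975 genes did (11.8% in all). Below 0 were 75 of the 83 changes, against 50.7% over all genes. Both P14 libraries and P16 library 1 came from 1 sequencing run and the other P16 libraries from another, so within the first run P16 has a single library. The median was -0.20 over the ribosomal protein genes and -0.00646 over all genes. Rpl39 fell from 45.6 and 43.2 CPM to 25.6, 29.9, 24.8 and 34.0, by 0.63 (SE 0.14, adjusted p 0.0166). Rpl36a fell by 0.49 and Rpl10 by 0.46, and for each of the 3 every P16 library lay below both P14 libraries. Rps4x was at -0.27 (SE 0.11, adjusted p 0.140) and not called. Rps3a1, Rps21, Rps28 and Rpsa, all of the small subunit, also fell. Rpl39l rose from 52.2 and 45.2 CPM to 87.6, 67.4, 86.5 and 69.7, by 0.68 (SE 0.14, adjusted p 0.0103). Over the same libraries markers of pachytene and later stages rose in 9 of 10 genes, spermatogonial ones fell in 4 of 14 and rose in 1, and peritubular ones fell in 3 of 5, and their part was not tested. These calls depend on single libraries: leaving out Cre control P14 library 1 gave 0 lower and 0 higher, Cre control P14 library 2 gave 13 and 0, Cre control P16 library 2 gave 2 lower, and Cre control P16 library 3 gave 1 and 0. Without the trend of the spread, or without a filter on low counts, 0 were called.

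**Figure D3:**
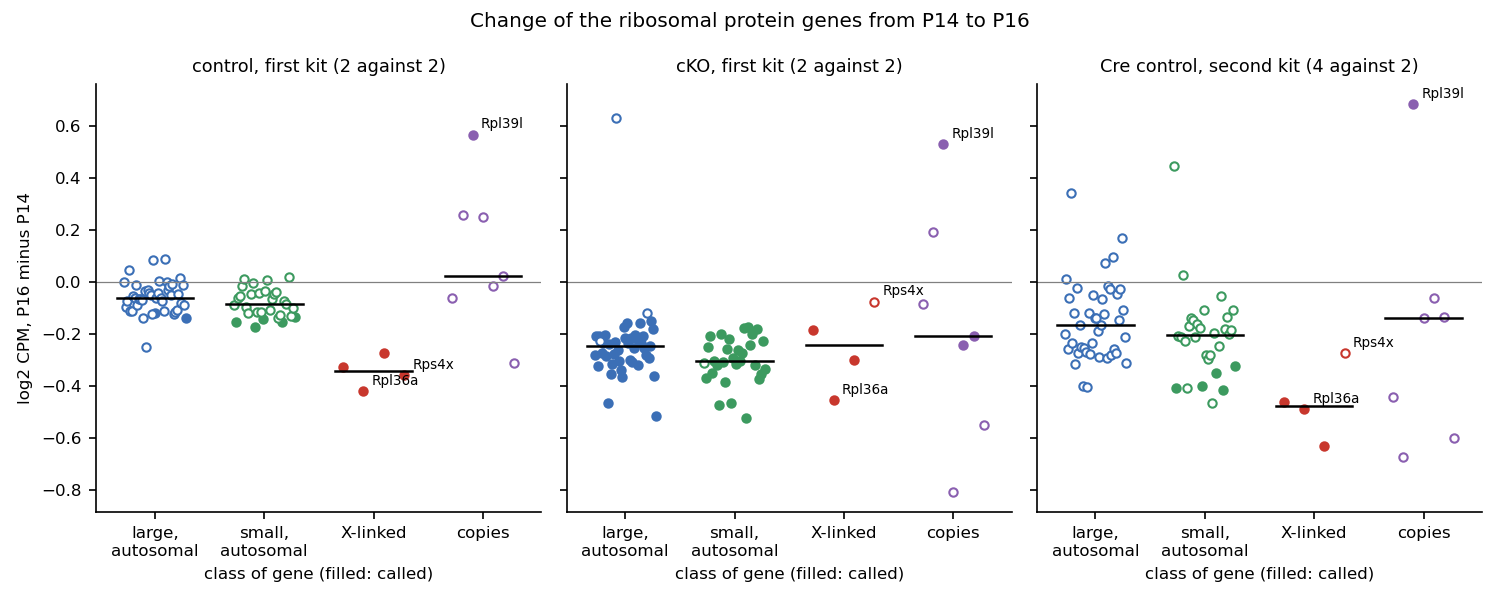
Change from P14 to P16 on the log2 CPM scale for each gene by class, in control and cKO testes of the first kit and in Cre control testes of the second (filled points were called, lines are class medians). In controls the X-linked genes lie below all called autosomal genes, in cKO they lie among or above them, and Rpl39l lies highest of the copies in all 3 groups.

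Over the 78 better-measured genes the change with age in controls and that in Cre controls had a Pearson correlation of 0.68 (Spearman 0.39) across genes, which are not independent replicates.

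Reads on the 84 genes were also expressed as a share of all protein-coding reads. In the first kit the share was 2.55% and 2.49% in P14 controls, 2.45% and 2.49% in P14 cKO, 2.33% and 2.38% in P16 controls, and 2.01% in both P16 cKO libraries. In the second kit it was 2.64% and 2.39% in P14 Cre controls and 2.47% in cKO library 3, and 2.23%, 2.09%, 2.11% and 2.31% in P16 Cre controls against 2.07% in cKO library 3. The lone P16 cKO library of the second kit was thus the lowest of its 5, close to the lowest Cre control. The X-linked genes took 2.00% and 2.07% of the ribosomal protein reads in P16 controls and 2.60% and 2.51% in P16 cKO of the first kit. In the second kit they took 1.75%, 1.93%, 1.63% and 2.00% in P16 Cre controls and 2.35% in cKO library 3. At P14 this share was 2.53% and 2.40% in controls and 2.49% and 2.32% in cKO, and 2.08% and 2.14% in Cre controls against 2.26% in cKO library 3. The base of the share, the reads on all 84 genes, was itself lower in P16 cKO of the first kit. A lower base raises the share even where the X-linked genes do not rise. Of the X-linked genes, only Rps4x was called higher there.

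**Figure D4:**
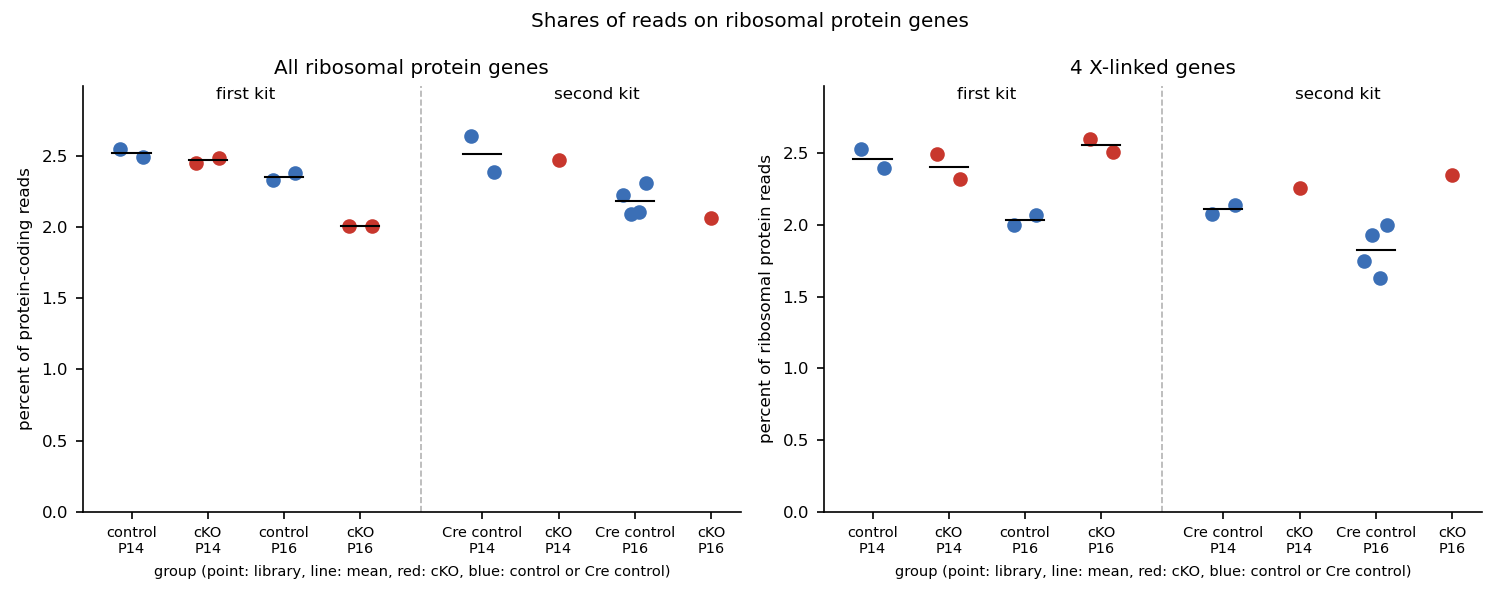
Share of protein-coding reads on the 84 ribosomal protein genes (left) and share of those reads on the 4 X-linked genes (right), per library, by kit, group and stage, with group means as lines. At P16 the cKO libraries of the first kit lie at 2.01% on the left, below controls at 2.33% and 2.38%, and the cKO libraries of both kits lie above their controls on the right. The share on the right also rises when reads on the autosomal genes fall.

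Within the second kit, cKO library 3 could be set against the Cre controls of its own stage, with no replicate and so no test. At P16 its sequencing run was that of Cre control library 1, while Cre control libraries 2 to 4 had another run. Run and genotype are thus partly mixed here. At P16 cKO library 3 lay below the mean of the 4 Cre controls for 63 of the 84 genes, among them 57 of the 70 that fell in the first kit, with a median log2 difference of -0.10. The Cre controls themselves varied as much. Each set against the mean of the other 3, they lay lower for 29, 67, 58 and 7 of the 84 genes, with medians from -0.09 to 0.10. For 36 of the 73 autosomal genes of the 2 subunits, cKO library 3 lay below all 4 Cre controls (30% of all genes did), for 35 within their range and for 2 above it (24% of all genes lay above). Rps28 measured 5920, 5303, 5676 and 5750 in Cre controls and 4671 in cKO library 3, below all 4, and Rps7 8004, 7335, 7668 and 8305 against 6852. Rplp2 was also below its Cre controls, at 4225 against 4681 to 5447. Among the X-linked genes, Rpl10 measured 2627, 2336, 2044 and 2834 in Cre controls and 3393 in cKO library 3, above all 4. Rps4x was above them by little, at 4083 against a highest Cre control of 4064. Rpl39 and Rpl36a lay within their Cre controls. Rpl39l was lower, at 1181 against 1337 to 1747, and it was also the lower at P14, at 715 against 968 and 806.

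**Figure D5:**
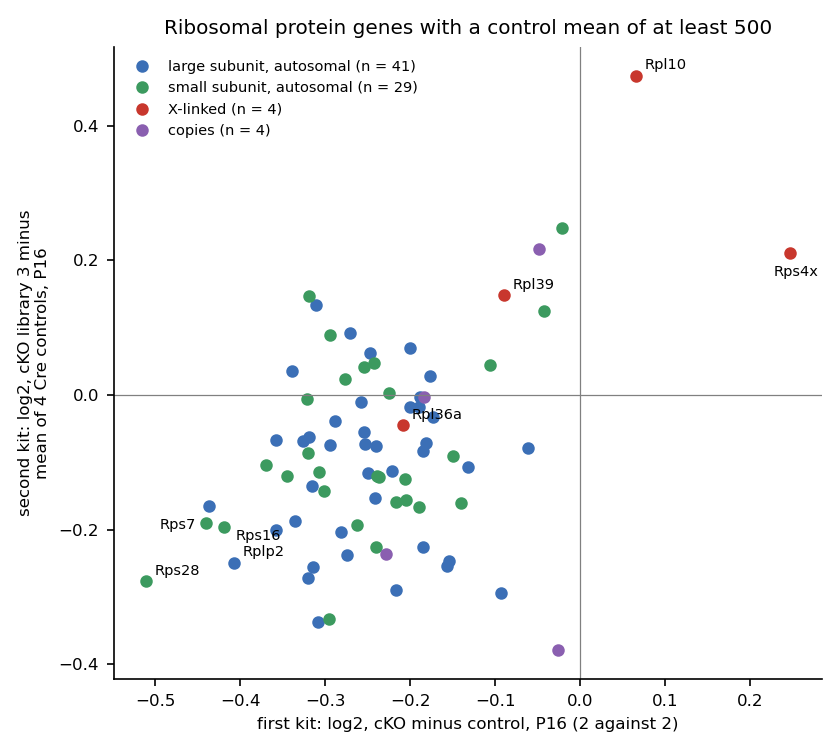
Log2 difference at P16 for the 78 genes with a control mean of at least 500: cKO minus control in the first kit (horizontal) and in the second, cKO library 3 minus the mean of its 4 Cre controls (vertical), coloured by class. Most autosomal genes lie low on both axes, and Rps4x and Rpl10 lie above 0 on both.

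The libraries behind the 2 axes are different, and across the 78 genes the Pearson correlation was 0.43 and Spearman's was 0.26. Among the 70 autosomal genes in this set they were 0.28 and 0.18, and over all 84 genes, the low ones included, 0.20 and 0.21.

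When all 3 cKO libraries were compared with the 4 Cre controls at P16, 8 of the 84 genes fell and 0 rose, where 4.77% and 4.30% of all 19200 genes did (9.07% in all). Of the differences, 52 were below 0, against 53.6% over all genes. Here 2 of the 3 cKO libraries differ from every Cre control in kit, so kit and genotype cannot be told apart for them. The 8 macrophage markers summed to between 3440 and 3816 in cKO and between 2513 and 3156 in Cre controls, with 1 called higher, and 3 of 12 early meiotic markers fell. Their part was not tested. Rpl35 fell most, from 3872, 3727, 4114 and 4290 in Cre controls to 1894, 1834 and 3344 in cKO. Its log2 change was -0.82 (SE 0.20, adjusted p 0.0496), and the value of 3344 is that of the library made with the same kit. Rplp2, Rps28, Rps14, Rpl18, Rpl11, Rpl37a and Rpl41 also fell. With the kit as a covariate 0 were called, and leaving out any 1 of the Cre controls, or cKO library 1 or 2, gave 0 as well. Leaving out cKO library 3, which leaves groups of different kits, gave 33 lower and 18 higher. At P14 the same comparison called 0 of 83 ribosomal protein genes and 0 of 18196 genes, with 1 and 705 at an unadjusted p under 0.05. Of the 83 differences, 44 were below 0 (50.8% of all genes were), and the median was -0.07, which turned to 0.05 without Cre control P14 library 1 and to 0.09 with quantile scaling. Leaving out cKO P14 library 3, which again leaves groups of different kits, gave 17 higher and 22 lower. DESeq2 and edgeR called none.

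Other genes of ribosome production were followed at P16 in the first kit, where 19.9% of all genes fell and 18.6% rose (38.6% in all). Fau and Rack1, ribosomal proteins with other names, fell by 0.21 each. Of 40 genes of ribosome assembly 25 fell and 1 rose, with a median of -0.23. Nmd3, the export adaptor of the large subunit, fell from 2269 and 2351 to 1522 and 1640, by 0.55 (SE 0.054). Rrp1b (-0.70) and Ddx10 (-0.55) fell as well. Of 11 genes of RNA polymerase I, which makes the large ribosomal RNA precursor, and its factors, 6 fell (median -0.18), among them Taf1d (-0.52) and Polr1b (-0.48). Of 18 translation factors and other messages known to carry TOP motifs, 8 fell and 0 rose, with a shallower median of -0.10, and Nap1l1 (-0.25) and Eef1b2 (-0.23) led them. Among 19 genes of mTOR, LARP1 and MYC control, 3 rose and 1 fell, with a median of 0.03, so the share that rose was near that of all genes and the share that fell was lower than theirs. Of the genes called, Rheb, the activator of mTOR, rose by 0.31 and Deptor, an inhibitor, by 0.28, while Mycl fell by 0.32. None of 9 noncoding hosts of small nucleolar RNAs was called. Of 77 mitochondrial ribosomal protein genes tested, 30 fell and 1 rose, with a median of -0.15, and Mrpl42 (-0.45) fell most. The differences between these lists and the cytosolic genes were not tested, and at P14 no gene of any of them was called (0.00579% of all genes were).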

How the data were processed

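Per the labels' protocols, total RNA of testes was isolated (RNeasy Plus Mini), depleted of ribosomal RNA with 1 of 2 kits and made into directional libraries. The authors deposited 4 tables of a signal, in which each library's gene reads were divided by its size factor; tables were scaled separately. Per the submitters' processing notes, Trim Galore, STAR, HTSeq and DESeq2 were used with build GRCm39 (mm39); versions, annotation release and strand setting are not given in the sources used here. In all 20 columns whole reads could be recovered from 100% of the nonzero values (tolerance 0.01 reads). The cKO libraries 1 and 2 stand in both tables of their stage with identical reads and were counted once; 0 columns were unmatched. STAR's summary rows were left out of tests: per library, unmapped reads took 18.1% to 41.1%, multimapping reads 5.81% to 10.9%, reads outside genes 12.3% to 28.6% and ambiguous reads 1.37% to 2.80% of all reads.

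Names, biotypes and transcript lengths (the median over a gene's protein-coding transcripts) came from GENCODE M21 by gene ID (52133 of 55414 named), start regions from RefSeq. Names with -ps followed by a number were read as covered by the -ps exclusion. The main test was limma 3.58.1 (R 4.3.3, eBayes with trend) on log2(value + 1) over genes that reached a value of 10 in 2 or more libraries, with Benjamini-Hochberg adjustment over all genes and a threshold of 0.05. For stages, limma was run on log2 CPM of the recovered reads, computed in edgeR 4.0.16 with TMM factors and a prior count of 1. The CPM printed for single libraries were computed from gene reads without TMM factors, so they do not give the log2 changes exactly. Fold changes are not length-dependent; only levels per kb compare genes. Alternatives were other pseudocounts, filters and scalings, no trend, edgeR and DESeq2 1.42.0 on recovered reads, a kit covariate, a block for the replicate number and leaving out each library. The fits were tested on simulated data.

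The genes and lists were chosen with earlier results of these data known. In each comparison the named genes are the 6 that rose most and the 6 that fell most among those called, the copies, the X-linked genes, the 3 highest and 3 lowest per kb, Rplp0, Rplp1, Rplp2, Rpsa, Rps6 and Rpl3, and up to 3 called genes of each further list; others were named after their values were seen. Protein sequences were not used here, and the values of a few genes are not reported here.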

Additional observations from a re-analysis of the deposited data

Results flagged for a closer look

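The cKO effect differed between the stages, by the interaction test of the first kit, for 25 ribosomal protein genes, each more negative at P16. Among them were Rps28 (-0.48), Rps7 (-0.39), Rplp2 (-0.38), Rps16 (-0.35), Rps21 (-0.35), Rps14 (-0.33), Rpl37a (-0.29), Rpl18 (-0.27) and Rplp1 (-0.27), as log2 differences of the effects.

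In 34 groups of 4 libraries examined, 1 held a library far from the other 3, and chance flags about 1 group in 20. Rpl41 measured 10176, 10199, 10192 and 9592 in the P16 Cre controls, with library 4 apart by 0.962 of the whole range, on the low side. In that library 7 of the 84 genes lay below the mean of the other 3 Cre controls.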

How the results depend on the processing

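The limits are few libraries per group, a kit that differs with the control type, and low levels of Rpl24, Rpl3l and Rpl36al, which make their changes imprecise. At P16 against control, 70 lower and 1 higher became 6 and 0 without the trend and 26 and 0 with both control types and the kit (an alternative chosen after seeing the data), and ran from 48 to 70 lower and from 1 to 2 higher when 1 library was left out. Against the Cre control at P16, 8 lower became 15 with a pseudocount of 10, 4 without a filter, 0 without the trend and 0 with the kit as covariate; DESeq2 gave 22 lower and 6 higher, quantile scaling 1 higher, and leaving out 1 library 0 to 33 lower and 0 to 18 higher. Against the Cre control at P14, the median of -0.07 reversed to 0.0859 with quantile scaling and ran from -0.131 to 0.0539 with 1 library left out (reversed without Cre control P14 library 1), and leaving out 1 library gave 0 to 22 lower and 0 to 17 higher. For the change with age in controls, 11 lower became 5 without a filter and 3 without the trend, and 3 to 15 with 1 library left out. In Cre controls 8 lower and 1 higher became 0 and 0 without a filter and 0 and 0 without the trend, and 0 to 13 lower and 0 to 1 higher with 1 library left out. The interaction's 25 lower became 0 without the trend and 3 to 45 lower and 0 to 1 higher with 1 library left out. Against the Cre control at either stage, the largest counts with 1 library left out came from leaving out cKO library 3, which leaves groups of different kits. No share of all genes is set beside the counts of these alternative fits here. The causes were not tested. Where a left-out library leaves a lone sample, that sample is assumed to vary like the other groups.

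Over the 32 genes that the rule picks, 3262 of 3648 differences kept their direction and side of the threshold, 302 lost and 84 gained a call, and 0 called ones changed direction; 2333 were uncalled under both settings, of which 116 changed sign.

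Same-numbered libraries share only a number: their deviations correlated by 0.08 at P16 and by 0.20 at P14 in the control tables, which hold 2 pairs each, by 0.30, -0.07 and 0.23 in the Cre control table at P16, where libraries of different numbers ranged from -0.35 to 0.36, and by -0.23 and 0.24 in that at P14. With the replicate number as a block, 0 genes fell against the Cre control at P16, and 17 rose and 23 fell at P14. At P14 the cKO library of the second kit has no Cre control of its number, so the block absorbs it. That fit then sets first-kit cKO libraries against second-kit Cre controls, so kit and genotype cannot be told apart in its counts. With the same block 1 gene fell with age in Cre controls, and the interaction gave 38 lower and 1 higher. The block moved no other count of calls by over 1.5 times.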

Other observations

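Reads on the 300 rows annotated as pseudogenes of these genes came to 0.422% to 0.590% of the ribosomal protein reads in the 8 libraries of the first kit and to 4.19% to 6.34% in the 8 of the second. Multimapping reads took 9.56% to 10.9% of all reads in the first kit and 5.81% to 6.84% in the second. Mitochondrial ribosomal protein genes took 0.305% to 0.341% of protein-coding reads in the first kit and 0.268% to 0.304% in the second.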
